A study of Arabidopsis thaliana with 12 samples.

Results

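The interaction of abscisic acid (ABA) and dimethylthiourea (DMTU) was the ABA effect measured with DMTU present minus the ABA effect measured without it. It was computed for each probe set as (ABA+DMTU minus DMTU) minus (ABA minus control), and it used 12 of the 12 arrays of the series. The arrays measured RNA of T87 cells, an undifferentiated suspension line of Arabidopsis thaliana in the Columbia (Col-0) background, at 5 days of culture. Control cells were labelled as given ethanol for 20 h, and DMTU cells carried the same ethanol label together with 5 mM DMTU. ABA cells received 50 µM ABA, and ABA+DMTU cells received 50 µM ABA with 5 mM DMTU. All groups grew in sucrose medium with the auxin naphthaleneacetic acid, and each group had 3 arrays. The comparison asks whether the response to ABA differs when DMTU, which the study used as a scavenger of hydrogen peroxide, is present. Members were chosen from the interaction test over 22746 probe sets, of which 1551 could be given a gene symbol. The genes described are the 38 with a symbol that passed that test, some uncalled genes for comparison, and 4 genes known by locus alone.

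ABA is the hormone of drought and seed maturation. Its receptors inhibit PP2C phosphatases, which frees SnRK2 kinases to activate transcription factors that induce late embryogenesis abundant (LEA) proteins, dehydrins and other desiccation genes. ABA also raises hydrogen peroxide through NADPH oxidases, and hydrogen peroxide acts as a signal in guard cells and growing roots. In dividing cultures ABA is also known to slow the cell cycle.

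An interaction of 0 means that the log2 effects of ABA and DMTU add, which on the linear scale means that their ratios multiply. A negative interaction means that the level with both agents lay below the additive level (ABA mean plus DMTU mean minus control mean), and a positive one that it lay above. A difference of 1 on the log2 scale is a 2-fold ratio. RNA was taken from whole cultures, so fewer cells of a type and less RNA per cell cannot be told apart. Whether replicates were separate cultures is not stated in the labels, and the p-values therefore cover only variation among these samples, possibly technical.

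Replicate 1 of the control and of the ABA group stood apart. The SD of its log2 differences from replicates 2 and 3 was 0.565 and 0.550 in control and 0.505 and 0.465 in ABA, against 0.167 and 0.174 between replicates 2 and 3. Spike-in control transcripts, foreign to the cells, had higher mean levels with DMTU, by amounts that varied. The smallest difference was in cre, whose mean went from 13.03 ± 0.09 (control) to 13.23 ± 0.1 (DMTU) and from 13.11 ± 0.18 (ABA) to 13.35 ± 0.2 (ABA+DMTU). The largest was in dap, which averaged 3.18 ± 0.07 in control and 3.16 ± 0.06 in ABA arrays, against 6.9 ± 0.28 in DMTU and 6.85 ± 0.47 in ABA+DMTU arrays (log2 level, SD, n = 3). Mean 3' minus 5' values of the cells' own transcripts were mostly higher with DMTU too (log2 difference, SD, n = 3). For ubiquitin they averaged 0.92 ± 0.07 (control) and 1.36 ± 0.07 (DMTU), and 0.67 ± 0.04 (ABA) and 1.1 ± 0.07 (ABA+DMTU). Actin went from 3.2 ± 0.46 to 3.58 ± 0.12 without ABA and from 2.65 ± 0.09 to 3.31 ± 0.07 with ABA. The exception was GAPDH without ABA, at 0.45 ± 0.1 (control) and 0.41 ± 0.19 (DMTU). The labels name no batch, and DMTU and anything else the arrays with DMTU shared cannot be told apart. By arithmetic, a log2 shift common to both DMTU groups cancels in the difference of differences. The dap spike-in had an interaction of -0.03 ± 0.32 (SE), and bioB, the spike-in furthest from 0, had -0.25 ± 0.36. The 3' minus 5' value of actin had 0.28 ± 0.28. With SEs of this size these values do not show how far shifts cancelled. A shift that varied with ABA or with level would not cancel. Of the markers of other plant cell types, 3 had a named probe set. The root hair expansin EXPA7 and the stomatal lineage factors MUTE and SPCH had group means between 3.41 and 4.15, near the lower quartiles of the arrays (3.84 to 3.98).

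The interaction passed the test for 638 probe sets, 2.8% of those tested, at a Benjamini-Hochberg adjusted p under 0.05 in limma. It was negative for 375 (1.65%) and positive for 263 (1.16%). An unadjusted p under 0.05 was reached by 3428 (15.1%). A departure of at least 2-fold was seen for 458 calls (2.01%), 298 of them negative (1.31%) and 160 positive (0.703%). The median negative call was -1.45 and the median positive call 1.14, against 0.0126 over all probe sets, and the extremes were -5.53 and 3.64. Leaving out a single array gave 291 calls without DMTU replicate 2 and 795 without control replicate 1. Besides DMTU replicate 2, the count moved by over 1.5 times without ABA replicate 3 (343), ABA+DMTU replicate 2 (370), control replicate 3 (385), DMTU replicate 1 (395), ABA+DMTU replicate 3 (411) and control replicate 2 (416). Of the probe sets with a symbol, 38 were called (2.45%), 23 negative and 15 positive. Another 106 positive and 191 negative calls fell on genes known by a locus identifier alone, and 303 calls on probe sets not matched to a gene here.

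The negative calls held several kinds of response. For 104 of 375 (27.7%) ABA raised the transcript in both settings, by less with DMTU, and for 114 (30.4%) ABA raised it without DMTU and no effect was called with DMTU. ABA lowered 78 (20.8%) in both settings, by more with DMTU, and 58 (15.5%) with DMTU only. The remaining 21 (5.6%) were raised without DMTU and lowered with it. Among the 263 positive calls, 81 (30.8%) were raised by ABA in both settings, by more with DMTU, and 83 (31.6%) with DMTU only. ABA lowered 60 (22.8%) without DMTU only, lowered 24 (9.13%) in both by less with DMTU, and turned from lowering to raising for 15 (5.7%). These classes rest on simple effects that make up the interaction, and they are a description of the calls. Over all probe sets ABA raised 3518 (15.5%) and lowered 4496 (19.8%) without DMTU, and raised 4274 (18.8%) and lowered 4682 (20.6%) with it.

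**Figure D1:**
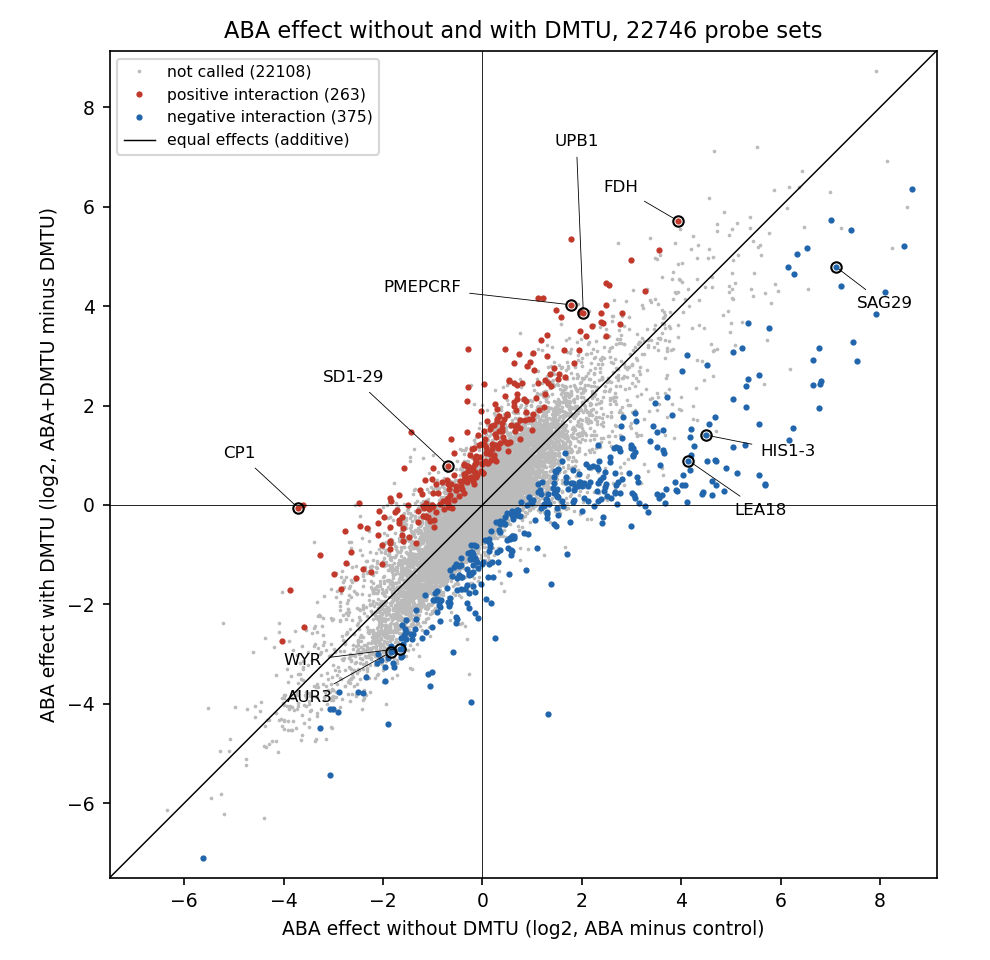
Each point is a probe set, with the ABA effect without DMTU (ABA minus control, log2) on the horizontal axis and the ABA effect with DMTU (ABA+DMTU minus DMTU, log2) on the vertical axis. The 375 negative interactions lie below the line of equal effects, many at strong ABA induction on the right, and the 263 positive ones lie above it, with ringed genes named.

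Seen from the side of DMTU, the departures fell along the axes. For 218 of the 375 negative calls (58.1%) DMTU had no called effect without ABA and lowered the transcript with ABA. For 127 (33.9%) DMTU raised it without ABA and had no called effect with ABA. Among the 263 positive calls the larger class was the reverse of the latter: DMTU lowered 154 (58.6%) without ABA and had no called effect on them with ABA, and it raised 80 (30.4%) with ABA only. DMTU effects of opposite sign in the 2 settings were called for 15 negative (4%) and 13 positive (4.94%) interactions. These classes too rest on simple effects that make up the interaction, and they are a description of the calls. A shift shared by the DMTU arrays does not cancel in the simple DMTU effects. Over all probe sets DMTU raised 2135 (9.39%) and lowered 1878 (8.26%) without ABA, and raised 1674 (7.36%) and lowered 1560 (6.86%) with ABA.

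**Figure D2:**
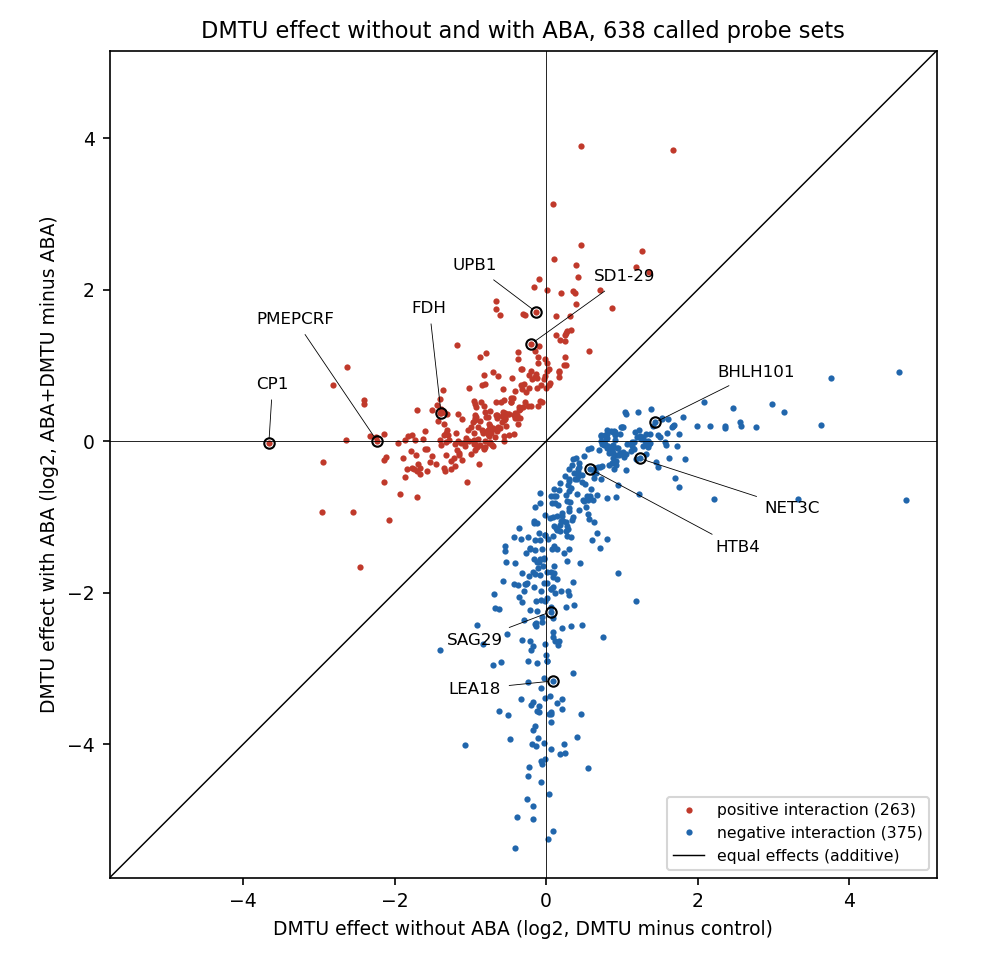
The 638 called probe sets are placed by the DMTU effect without ABA (DMTU minus control, log2, horizontal) and with ABA (ABA+DMTU minus ABA, log2, vertical). The negative interactions run down the vertical axis and out along the horizontal one, and the positive ones lie mostly where DMTU lowered the level without ABA and had an effect near 0 with it.

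The calls differed in how bright they were. The median over probe sets of the mean level was 5.5 for negative and 7.7 for positive calls, against 5.99 for all. At least 1 group mean lay at or below the lower quartile of the arrays for 145 negative calls (38.7%) and 20 positive calls (7.6%), against 31.8% of all probe sets. In 32 negative calls only 1 group lay above that quartile, which was ABA in 22 and DMTU in 10. The negative sign itself restricts that group to ABA or DMTU. Of all 22746 probe sets, 776 had only 1 such group: ABA in 221, DMTU in 154, control in 96 and ABA+DMTU in 305. For 33 positive calls (12.5%) the additive level was itself at or below the lower quartile, and for 7 it was below 2.62, the lowest value of any probe set on any array. For the latter 7, additive levels lay outside the range of the arrays, and the size of the interaction is bounded by the low end.

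The largest negative interactions among genes with a symbol were in ABA-induced desiccation genes. LEA18 (AT2G35300), an LEA protein that accumulates in seeds, was at 3.73, 3.77 and 3.74 in control, 8.6, 7.58 and 7.5 in ABA, 3.88, 3.79 and 3.84 in DMTU and 4.78, 4.92 and 4.48 in ABA+DMTU arrays (log2 level). Each ABA array lay above each ABA+DMTU array, and the ABA rise of 4.14 without DMTU was 0.89 with it. The interaction was -3.25 ± 0.34 (SE; adjusted p = 0.000673). The linker histone HIS1-3 (AT2G18050), which drought and ABA are known to induce, was at 3.4, 3.53 and 3.36 in control, 8.19, 7.82 and 7.78 in ABA, 3.32, 3.55 and 3.34 in DMTU and 3.74, 5.28 and 5.41 in ABA+DMTU arrays. The ABA+DMTU arrays were below all ABA arrays and spread widely, with replicate 1 lowest. Its interaction was -3.09 ± 0.49 (adjusted p = 0.00801). In both genes the levels without ABA were near the arrays' lower quartiles or under them.

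Other LEA genes did not all behave alike. AtLEA4-1 (AT1G32560) had an ABA effect of 2.58 without DMTU and 0.13 with it (interaction -2.45 ± 0.55, adjusted p = 0.0417), and ABA replicate 1, at 7.46, lay above replicates 2 and 3 at 5.53 and 5.76. When 1 array at a time was left out, this call stood without ABA replicate 1 or ABA replicate 2. It ended without any of the other 10 arrays (adjusted p from 0.0523 to 0.102). The dehydrin LEA (AT2G21490) rose by 1.95 without DMTU and by 0.47 with it (-1.48 ± 0.23, adjusted p = 0.00767). Of 8 LEA and dehydrin genes with a symbol, 3 had a negative and 0 a positive call, with a median interaction of -1.04, and ABA raised 7 of them in each setting. Over all probe sets 1.65% were called negative, and ABA raised 15.5% without and 18.8% with DMTU. The LEA protein gene LEA4-5 had -1.22 ± 0.36 (adjusted p = 0.107), with control replicate 1 at 5.04 beside 4.1 and 4.09. All its ABA arrays (12.47 to 12.65) lay above all its ABA+DMTU arrays (11.18 to 11.51). It was called negative under 4 of 19 alternatives, among them the linear scale (adjusted p = 0.000149). The dehydrin LTI30 had -0.87 ± 0.71 (adjusted p = 0.644), and 2.02 in units of its mean linear signal on the linear scale (adjusted p = 0.135), so its direction turned with the scale. COR15A, which protects chloroplast membranes in the cold, had 0.47 ± 0.39 (adjusted p = 0.651), and the dehydrin COR47 had 1.61 ± 0.64 (adjusted p = 0.252). The values of these uncalled genes lay on either side of 0, and COR47 had a control replicate 1 of 7.21 beside 5.06 and 5.35 in replicates 2 and 3. LTI30 had an ABA replicate 1 of 9.72 beside 11.72 and 11.79. Of 19 alternatives, 1 called LTI30 negative (adjusted p = 0.041), 1 called COR47 positive (adjusted p = 0.0142) and 0 called COR15A.

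A sugar transporter and a starch synthesis gene were among the genes with smaller ABA effects with DMTU. SAG29 (AT5G13170), a sugar exporter of the SWEET family that marks senescence, was at 4.67, 5.4 and 5.33 in control, 12.32, 12.25 and 12.16 in ABA, 5.21, 5.41 and 4.96 in DMTU and 10.03, 9.78 and 10.16 in ABA+DMTU arrays. It rose by 7.11 without DMTU and by 4.80 with it, so it remained strongly induced while every ABA+DMTU array stayed below every ABA array (-2.31 ± 0.27, adjusted p = 0.00151). APL4 (AT2G21590), a large subunit of the starch synthesis enzyme ADP-glucose pyrophosphorylase, was at 4.35, 4.2 and 4.23 in control, 6.73, 6.76 and 6.65 in ABA, 4.51, 4.5 and 4.37 in DMTU and 5.44, 4.4 and 4.37 in ABA+DMTU arrays. ABA+DMTU replicate 1 stood above the DMTU arrays and replicates 2 and 3 lay among them, and the interaction was -2.18 ± 0.32 (adjusted p = 0.00555).

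ATOEP16-2 (AT4G16160), a channel of the plastid outer envelope found in seeds, rose by 2.67 without DMTU and by 0.65 with it (-2.02 ± 0.25, adjusted p = 0.00195). The serine carboxypeptidase-like gene scpl28 (AT2G35770) had ABA effects of 2.49 and 0.43 (-2.07 ± 0.29, adjusted p = 0.00422), and the latter did not pass the test. FaTA (AT3G25110), a thioesterase that releases fatty acids from plastid synthesis, had ABA effects of 1.69 and 0.46 (-1.23 ± 0.25, adjusted p = 0.0257). CHX20 (AT3G53720), a cation/proton exchanger of guard cells, rose by 2.36 and 0.89 (-1.46 ± 0.34, adjusted p = 0.045). The FaTA call ended when control 2 or 3, ABA 2 or 3, ABA+DMTU 2, or DMTU 1 or 2 was left out (adjusted p from 0.0501 to 0.0715). The CHX20 call ended without any 1 of 9 arrays, all but control 1, ABA 1 and ABA+DMTU 1, with adjusted p between 0.0555 and 0.112. It also ended with the replicate number as a block (adjusted p = 0.0771).

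Among regulators, PUB19 (AT1G60190), a U-box ubiquitin ligase that dampens drought and ABA responses, was at 4.52, 4.84 and 4.82 in control, 9.7, 8.96 and 9.07 in ABA, 5.26, 5.39 and 5.39 in DMTU and 8.34, 8.18 and 8.0 in ABA+DMTU arrays. DMTU raised it by 0.63 without ABA and lowered it by 1.07 with ABA, and no groups overlapped. The interaction was -1.70 ± 0.26 (adjusted p = 0.00649). The transcription factor WRKY6 (AT1G62300), known from senescence and phosphate responses, rose by 1.49 without DMTU and by 0.66 with it (-0.83 ± 0.16, adjusted p = 0.0248). Its call ended without control 2 or 3, ABA 3, DMTU 1 or 3, or ABA+DMTU 1 or 3 (adjusted p from 0.0533 to 0.0671).

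Some negative calls were in genes of dividing cells. WYR and AUR3 were lowered more by ABA in cells with DMTU, while ATMAP65-6 and a probe set of FU, also listed under cell division, had positive calls and are described further on. WYR (AT5G55820), an inner centromere protein of the INCENP family that works with Aurora kinases, was at 5.53, 5.16 and 5.37 in control, 3.66, 3.69 and 3.73 in ABA, 6.28, 6.28 and 6.58 in DMTU and 3.67, 3.27 and 3.53 in ABA+DMTU arrays. The DMTU arrays were the highest and the ABA and ABA+DMTU arrays overlapped at the bottom (-1.23 ± 0.19, adjusted p = 0.00767). AUR3 (AT2G45490), an Aurora kinase of mitosis, was at 5.76, 6.15 and 6.3 in control, 3.98, 4.28 and 4.42 in ABA, 7.02, 7.12 and 6.87 in DMTU and 4.16, 3.99 and 3.98 in ABA+DMTU arrays. DMTU raised it by 0.93 without ABA, and its effect with ABA was -0.18 (interaction -1.12 ± 0.22, adjusted p = 0.0238). The AUR3 call ended without ABA 2 or 3, DMTU 1 or 2, or ABA+DMTU 2 or 3 (adjusted p from 0.056 to 0.071). The ABA levels of WYR were under the arrays' lower quartiles and those of AUR3 were at or just above them.

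Histone HTB4 (AT5G59910), a core H2B, was far from the low end. It was at 11.1, 11.14 and 11.06 in control, 10.68, 10.6 and 10.45 in ABA, 11.56, 11.7 and 11.77 in DMTU and 10.25, 10.16 and 10.22 in ABA+DMTU arrays. No groups overlapped: DMTU raised it by 0.58 without ABA and lowered it by 0.37 with ABA (interaction -0.95 ± 0.14, adjusted p = 0.00468). Of 8 histone genes with a symbol, 7 had an interaction below 0 and 2 were called, HIS1-3 and HTB4, with a median of -0.75, against 10942 of 22746 below 0 and 1.65% called negative over all probe sets. ABA lowered 5 and raised 1 of the 8 without DMTU, so the list holds opposite responses. Over all probe sets ABA lowered 19.8% and raised 15.5% without DMTU. Core histone HTB1 had -0.61 ± 0.21 (adjusted p = 0.184), and HTB2 had -0.19 ± 0.75 (adjusted p = 0.945).

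Of 16 probe sets for 15 mitosis and cell division genes, 2 were called negative, 2 positive, and 12 lay below 0, with a median of -0.56. ABA lowered 14 of them without DMTU, and DMTU raised 9 without ABA and 0 with ABA. Over all probe sets 10942 of 22746 lay below 0, 1.65% were called negative and 1.16% positive, ABA lowered 19.8% without DMTU, and DMTU raised 9.39% without ABA and 7.36% with it. Uncalled members included the Aurora kinases AUR1 (-0.91 ± 0.46, adjusted p = 0.391) and AUR2 (-1.17 ± 0.44, adjusted p = 0.213), and the spindle checkpoint genes BUB3.2 (-0.91 ± 0.23, adjusted p = 0.064) and BUBR1 (-0.7 ± 0.29, adjusted p = 0.279). Of 8 genes of meiosis, recombination and DNA repair, 2 were called negative, beside 1.65% of all probe sets, with a median of -0.39. ATSPO11-1 (AT3G13170), which makes the breaks that start meiotic recombination, had -1.05 ± 0.19 (adjusted p = 0.0143). OSB1 (AT1G47720), which guards mitochondrial DNA against recombination, had -0.77 ± 0.15 (adjusted p = 0.0224), a call that ended without control 2, ABA 2 or 3, or DMTU 2 or 3 (adjusted p from 0.0503 to 0.0666).

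In the remaining negative calls the DMTU group had the highest mean. NET3C (AT2G47920), of a family of actin-binding membrane proteins, was at 5.34, 4.98 and 4.89 in control, 3.83, 3.97 and 3.78 in ABA, 6.35, 6.33 and 6.25 in DMTU and 3.44, 3.6 and 3.86 in ABA+DMTU arrays (-1.46 ± 0.20, adjusted p = 0.00333). BHLH101 (AT5G04150), a transcription factor of iron deficiency, was at 3.65, 4.0 and 3.68 in control, 3.65, 3.91 and 3.74 in ABA, 5.34, 5.4 and 4.9 in DMTU and 3.63, 4.22 and 4.19 in ABA+DMTU arrays. It stood out in the DMTU arrays only, and the other groups overlapped near the low end (-1.19 ± 0.26, adjusted p = 0.0373). The lectin receptor kinase-like gene B120 (AT4G21390) rose by 1.18 with DMTU without ABA, and its DMTU effect with ABA was 0.12 (-1.05 ± 0.19, adjusted p = 0.0152). The lower quartiles of the arrays were 3.84 to 3.98. NET3C averaged 3.86 in ABA and 3.63 in ABA+DMTU arrays, and B120 averaged 3.63 and 3.76. These levels were near the low end, which limits how large a fall with ABA could be measured. The BHLH101 call ended without any 1 of 9 arrays, all but control 2, ABA 1 and DMTU 3 (adjusted p from 0.051 to 0.1).

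GFAT (AT3G24090), which starts the synthesis of amino sugars, had -0.93 ± 0.19 (adjusted p = 0.0273). UBP21 (AT5G46740), a ubiquitin-specific protease, had -1.07 ± 0.25 (adjusted p = 0.0425), and THO7 (AT3G02950), of the complex that couples transcription to mRNA export, had -0.82 ± 0.19 (adjusted p = 0.0417). Each of these calls was close to the threshold and depended on the arrays used. GFAT lost its call without any 1 of 8 arrays, all but ABA+DMTU 3, DMTU 1, control 1 and ABA 1 (adjusted p from 0.0551 to 0.0758). UBP21 lost it without any 1 of 9, all but control 2, ABA 1 and ABA+DMTU 3 (0.0615 to 0.108), and THO7 without any 1 of 10, all but control 2 and ABA 1 (0.0612 to 0.109). Just outside the threshold were the mitotic kinase Haspin (-0.94 ± 0.23, adjusted p = 0.0547) and the peptide gene RALFL32 (-2.24 ± 0.54, adjusted p = 0.052).

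Among positive interactions, a group of ABA-induced genes started lower with DMTU and ended at or above the ABA level. FDH (AT5G14780), the mitochondrial formate dehydrogenase of stress metabolism, was at 8.99, 9.01 and 8.85 in control, 12.99, 12.81 and 12.89 in ABA, 7.49, 7.45 and 7.75 in DMTU and 13.25, 13.28 and 13.29 in ABA+DMTU arrays. No groups overlapped, and DMTU lowered it by 1.39 without ABA and raised it by 0.38 with ABA (interaction 1.77 ± 0.15, adjusted p = 0.000167). PMEPCRF (AT5G53370), a pectin methylesterase of the cell wall, was at 8.87, 8.8 and 8.82 in control, 10.32, 10.76 and 10.76 in ABA, 6.8, 6.6 and 6.38 in DMTU and 10.9, 10.28 and 10.68 in ABA+DMTU arrays. Only the starting levels differed clearly with DMTU, and the arrays with ABA overlapped (2.25 ± 0.25, adjusted p = 0.00102). Its call did not hold when additivity was defined on linear signals (adjusted p = 0.43).

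TBL25 (AT1G01430), of the trichome birefringence-like family that acetylates wall polysaccharides, was at 7.4, 7.0 and 7.06 in control, 8.13, 8.59 and 8.53 in ABA, 6.3, 6.23 and 6.16 in DMTU and 8.74, 8.74 and 8.73 in ABA+DMTU arrays. The DMTU arrays were lowest and the ABA+DMTU arrays highest (1.25 ± 0.20, adjusted p = 0.00801). GH3.17 (AT1G28130), which conjugates auxin to glutamate, rose by 0.39 with ABA without DMTU and by 1.49 with it, and DMTU lowered it by 1.05 without ABA (1.10 ± 0.17, adjusted p = 0.00687). The related WES1, also known as GH3.5, had 0.85 ± 0.29 (adjusted p = 0.179), which turned to -0.94 in units of its mean linear signal on the linear scale (adjusted p = 0.268).

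For another 3 genes the ABA rise was called with DMTU only. GSTU27 (AT3G43800), a tau-class glutathione S-transferase, was at 8.94, 9.21 and 9.25 in control, 8.92, 9.33 and 9.28 in ABA, 8.52, 8.35 and 8.07 in DMTU and 9.87, 9.37 and 9.67 in ABA+DMTU arrays. Control and ABA arrays overlapped, while the DMTU arrays lay below and the ABA+DMTU arrays above them (1.28 ± 0.24, adjusted p = 0.0192). SWEET17 (AT4G15920), a vacuolar fructose transporter, had ABA effects of 0.64 without and 2.45 with DMTU (1.81 ± 0.37, adjusted p = 0.0273), and CHL (AT3G47860), a chloroplast lipocalin that protects against lipid peroxidation, had 0.07 and 1.05 (0.98 ± 0.19, adjusted p = 0.0238). GSTU27 lost its call without control 3 (adjusted p = 0.0502) or DMTU 2 (0.0508). SWEET17 lost it without control 2 or 3 or any ABA+DMTU array (0.0502 to 0.066), and CHL without control 3, ABA 3 or ABA+DMTU 3 (0.0574 to 0.06).

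UPB1 differed from these in that DMTU had no called effect on its starting level. UPB1 (AT2G47270), a bHLH factor that represses peroxidases and sets the balance of superoxide and hydrogen peroxide in roots, was at 4.52, 3.94 and 3.94 in control, 6.5, 5.81 and 6.18 in ABA, 4.23, 3.65 and 4.11 in DMTU and 7.61, 7.86 and 8.14 in ABA+DMTU arrays. Control and DMTU arrays overlapped, and all ABA+DMTU arrays were above all ABA arrays. It rose by 2.03 with ABA alone and by 3.87 with DMTU present, an interaction of 1.84 ± 0.33 (adjusted p = 0.0149).

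**Figure D3:**
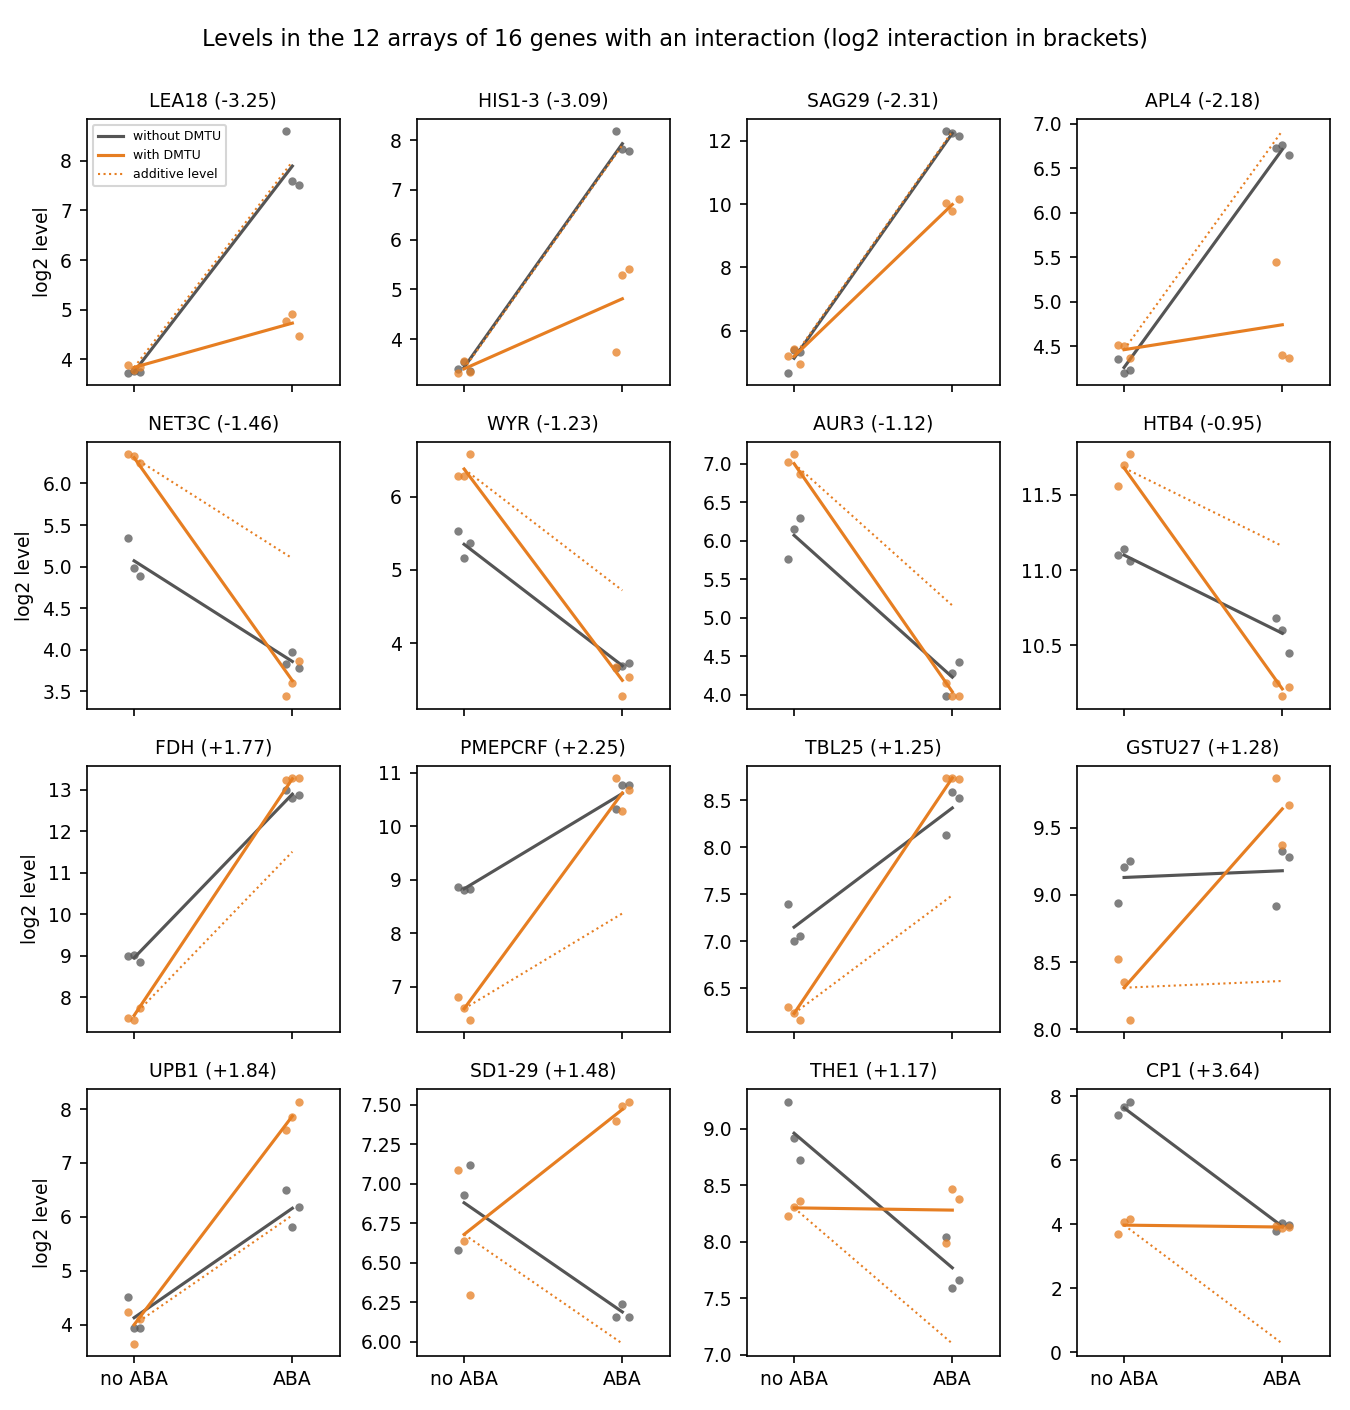
Log2 levels of 16 genes in the 12 arrays, without and with ABA, in grey without DMTU and in orange with DMTU. Lines join group means, the dotted line runs to the additive level, and the number in brackets is the interaction. In the top row the ABA+DMTU arrays lie below the additive level from a shared start, in the next row from a raised DMTU start, and in the lower rows they lie above it.

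Among the 638 interaction calls, 36 had called ABA effects of opposite sign: 21 of 375 negative (5.6%) and 15 of 263 positive calls (5.7%). Effects of opposite sign make up an interaction by themselves, so this count is a description of the calls. SD1-29 (AT1G61380), a lectin receptor kinase that senses bacterial fatty acids, was at 6.58, 6.93 and 7.12 in control, 6.16, 6.24 and 6.16 in ABA, 7.09, 6.64 and 6.3 in DMTU and 7.4, 7.49 and 7.52 in ABA+DMTU arrays. It fell by 0.69 with ABA alone and rose by 0.79 with DMTU present (1.48 ± 0.26, adjusted p = 0.0143). COB (AT5G60920), which orients cellulose in growing roots, was at 10.51, 10.22 and 10.17 in control, 10.13, 9.73 and 9.72 in ABA, 10.02, 9.92 and 10.15 in DMTU and 10.51, 10.43 and 10.6 in ABA+DMTU arrays. All ABA arrays were below the control arrays and all ABA+DMTU arrays above the DMTU arrays (0.93 ± 0.19, adjusted p = 0.029). The COB call ended without any 1 of 8 arrays, all but control 1, control 3, ABA 1 and DMTU 3 (adjusted p from 0.0526 to 0.0826).

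In the last group of positive calls each agent alone lowered the transcript, and adding the other agent had no called effect. CP1 (AT4G36880), a cysteine protease, was at 7.42, 7.65 and 7.83 in control, 3.79, 4.04 and 3.96 in ABA, 3.7, 4.07 and 4.15 in DMTU and 3.95, 3.88 and 3.91 in ABA+DMTU arrays. The 3 treated groups overlapped near the lower quartiles, and the additive level of 0.27 lay below any value on the arrays, so the interaction of 3.64 ± 0.20 (adjusted p = 2.37e-05) has a size bounded by the low end. ATMAP65-6 (AT2G01910), a microtubule-associated protein, was at 9.97, 9.48 and 9.52 in control, 8.36, 8.46 and 8.26 in ABA, 8.66, 8.56 and 8.64 in DMTU and 8.69, 8.49 and 8.33 in ABA+DMTU arrays. These treated groups were well above the low end (1.18 ± 0.20, adjusted p = 0.0119).

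THE1 (AT5G54380), a receptor kinase that monitors wall integrity, was at 9.24, 8.92 and 8.72 in control, 8.04, 7.59 and 7.66 in ABA, 8.23, 8.31 and 8.36 in DMTU and 7.99, 8.47 and 8.38 in ABA+DMTU arrays. The control arrays were highest and the ABA effect with DMTU was -0.02 (interaction 1.17 ± 0.24, adjusted p = 0.0283). The THE1 call ended without any 1 of 8 arrays, all but control 1, control 3, ABA 1 and ABA+DMTU 1 (adjusted p from 0.0555 to 0.0756), and with the replicate number as a block (0.0509). TBL39 (AT2G42570), of the same family as TBL25, had 0.90 ± 0.18 (adjusted p = 0.0248), a call that ended without ABA 3, DMTU 1 or 2, or ABA+DMTU 2 or 3 (0.057 to 0.0715). FU (AT1G50240), a kinase of cell plate growth, gave different answers from its pair of probe sets, 0.99 ± 0.19 (adjusted p = 0.0207) and -0.43 ± 0.22 (adjusted p = 0.393). The called one lost its call without control 2 or 3, ABA 3, DMTU 2 or 3, or ABA+DMTU 2 (0.0507 to 0.0556). Its treated groups averaged between 3.79 and 3.95, near the arrays' lower quartiles (3.84 to 3.98), and its additive level was 2.8. Such levels limit how large a fall could be measured, and with it the size of this interaction. The uncalled probe set was brighter in every group. Its DMTU effect without ABA was 0.86, against -1.15 in the called one.

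In some gene families most members lay above 0, and 1 or 2 members of each were called positive. Of 22 trichome birefringence-like probe sets, 16 lay above 0, 2 were called positive and the median was 0.26. Of 24 cellulose synthase-like, GH9 cellulase and COBRA genes, 19 lay above 0, 1 was called positive and the median was 0.24. Expansin, xyloglucan and pectin methylesterase enzymes had 1 positive call among 33 and a median of 0.0928. These stand beside 11804 of 22746 above 0, 1.16% called positive and a median of 0.0126 over all probe sets tested.

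Plastid-encoded genes and nuclear photosynthesis genes leaned upwards without a call. The plastid-encoded list was taken by chromosome and also holds genes of ribosomal proteins and RNA polymerase. Of 69 plastid-encoded genes, 64 lay above 0 with a median of 0.44, and of 15 nuclear genes of photosynthesis and tetrapyrrole synthesis 13 did, with a median of 0.47. None of either list passed the limma test. An unadjusted p under 0.05 was reached by 7 of the 69 and by 7 of the 15, beside 15.1% of all probe sets. DMTU lowered 30 of the 69 plastid-encoded genes without ABA and 17 with it. Over all probe sets it lowered 8.26% without ABA and 6.86% with it, and 11804 of 22746 had an interaction above 0. PSAN, a photosystem I subunit, had the highest nuclear value at 1.62 ± 0.43 (adjusted p = 0.0779), and the light-harvesting gene LHCB4.2 had 1.36 ± 0.35 (adjusted p = 0.068).

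Among redox families there was 1 call. Of 15 thioredoxin, glutaredoxin and ascorbate cycle genes none was called, with a median of 0.19, and 2 had an unadjusted p under 0.05, where 15.1% of all probe sets did. GSTU27 was the sole call among 13 glutathione S-transferases, whose median was 0.12, beside 2.8% called over all probe sets. Other families with no call were UDP-glycosyltransferases (47 probe sets, median -0.00365, 6 with an unadjusted p under 0.05), cytochrome P450 genes (23, 0.00611, 3), beta-glucosidases (22, 0.0165, 3), MADS-box factors (42, -0.0106, 3), subtilases (8, -0.0151, 0) and response regulators (6, -0.00114, 0). The sugar transporters held a call on each side, SAG29 and SWEET17, and so did the 8 bHLH factors, BHLH101 and UPB1. The remaining lists had 1 call each: PUB19 of 21 U-box and E2 enzymes, scpl28 of 29 carboxypeptidase-like genes, CHX20 of 7 exchangers, UBP21 of 12 ubiquitin proteases, WRKY6 of 7 WRKY factors and GH3.17 of 16 auxin genes.

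**Figure D4:**
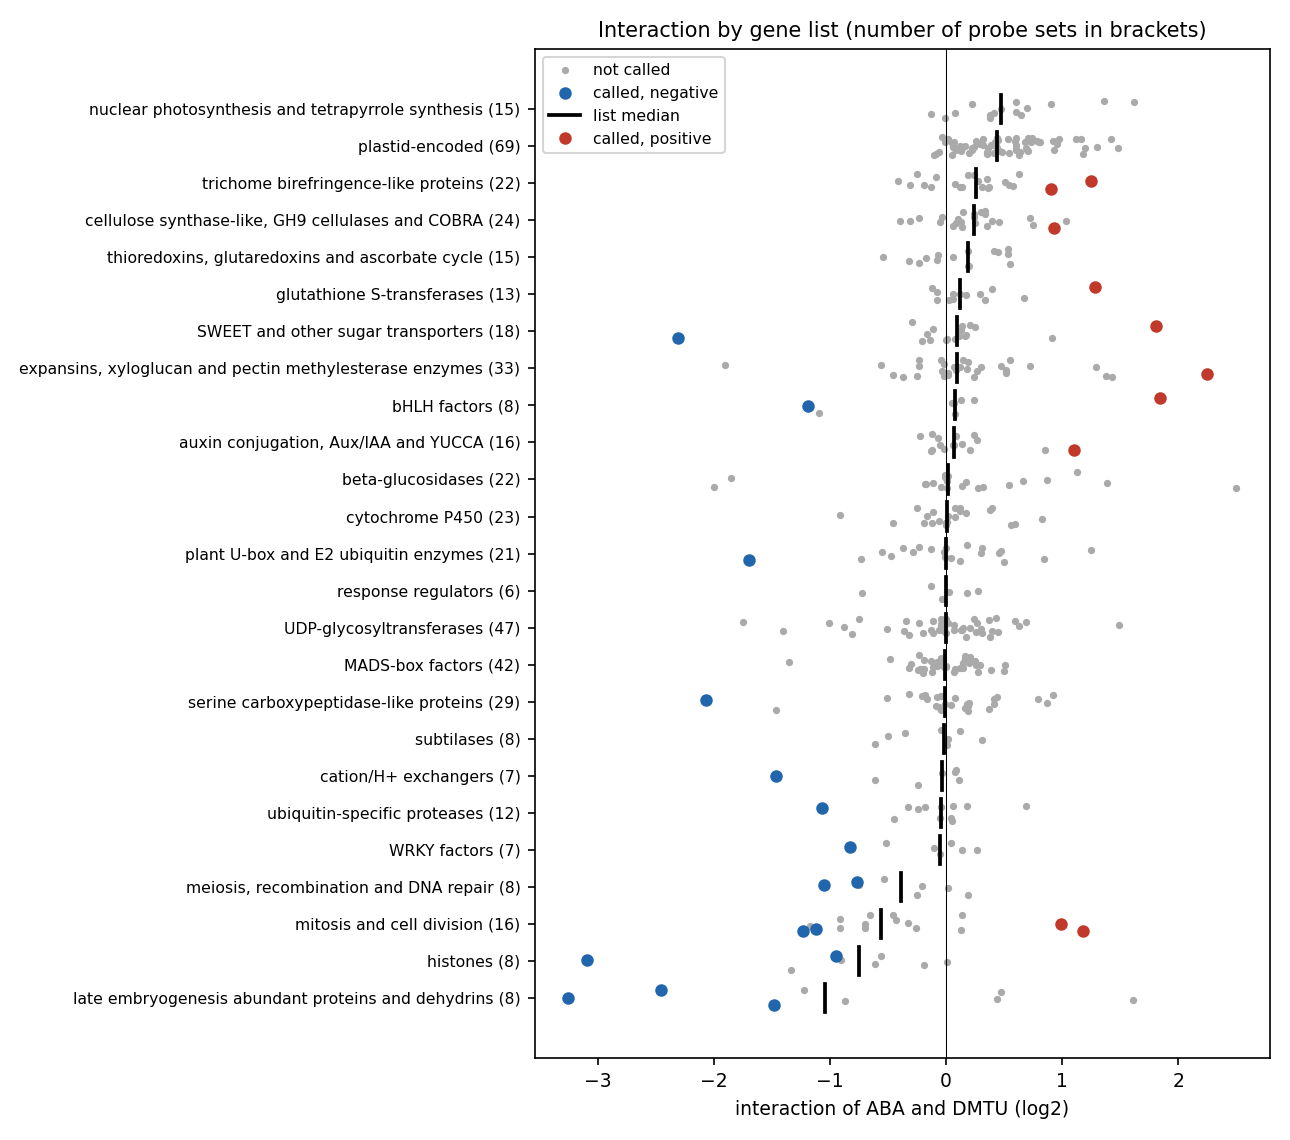
Interactions (log2, horizontal axis) of the probe sets in 25 lists of gene families, ordered by median, with called probe sets in blue (negative) and red (positive), the rest in grey, and a bar at each list's median. Late embryogenesis, histone, cell division and recombination genes have medians from -1.04 to -0.39. The plastid-encoded list and the nuclear photosynthesis and tetrapyrrole list have medians of 0.44 and 0.47 with no call.

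Some of the largest interactions lay on genes known here only by locus. AT2G22510 was at 3.28, 3.25 and 3.3 in control, 11.02, 7.79 and 8.05 in ABA, 3.17, 3.28 and 3.44 in DMTU and 3.37, 3.76 and 3.98 in ABA+DMTU arrays, so its rise of 5.68 with ABA was 0.41 with DMTU present (-5.27 ± 0.90, adjusted p = 0.0127). AT1G68850 had a like course, with ABA effects of 5.56 and 0.60 (-4.95 ± 0.61, adjusted p = 0.00217). In both, ABA replicate 1 was above the other ABA arrays, and neither call held on the linear scale (adjusted p = 0.465 for AT2G22510 and 0.275 for AT1G68850). On the positive side, AT5G22860 was at 3.52, 3.91 and 3.83 in control, 4.78, 4.73 and 5.11 in ABA, 3.7, 4.07 and 3.76 in DMTU and 7.47, 8.25 and 8.3 in ABA+DMTU arrays (3.05 ± 0.31, adjusted p = 0.000562). It was highest with both agents, and ABA alone raised it by 1.12 (adjusted p = 0.00172). AT1G62480 had effects of -3.62 with ABA alone and -2.63 with DMTU alone, both called, and its ABA+DMTU and DMTU arrays overlapped (3.62 ± 0.39, adjusted p = 0.000834).

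The scale on which additivity is defined changed some calls. On linear signals, where effects add instead of multiplying, 1045 probe sets were called, 726 of them negative and 319 positive. Of the 375 negative log2 calls, all 375 kept their sign on the linear scale and 283 were called there. Of the 263 positive log2 calls, 254 kept their sign, 164 were called in the same direction and 1 in the opposite direction. Of the genes named, LEA18 (adjusted p = 0.0573), AtLEA4-1 (0.303), PUB19 (0.0704), PMEPCRF (0.43), AT2G22510 (0.465) and AT1G68850 (0.275) passed the test on the log2 scale and not on the linear one.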

How the data were processed

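RNA of 12 samples was measured on single-colour arrays, 3 per group, with groups and replicate numbers taken from the labels. The values used were the log2 probe set values deposited by the authors. RMA and limma are named, without role or version, per the submitters' processing notes. The genome build, and whether all arrays were normalized together, are not given in the sources used here. With 3 arrays per group, the number of arrays limits the precision.

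Of 22810 probe sets, 64 controls were left out. Names came from the platform annotation, updated through a gene table: 13513 probe sets had 1 gene (13436 matched), 503 several and 8730 are unnamed here. Only 1551 had a symbol, so well-known genes missing from the text are mostly unnamed here.

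A mean per group was fitted with limma 3.58.1 (R 4.3.3; lmFit, eBayes, 8 residual degrees of freedom), with two-sided tests and Benjamini-Hochberg adjustment over 22746 probe sets. ± is SE for effects and SD for levels. The scripts were tested on simulated data. Tables and plots used Python 3.11.15, pandas 2.3.3 and matplotlib 3.10.9. Alternatives were array centring, leaving out probe sets with a mean under 5, array quality weights, a variance trend, the replicate block, linear signals, and leaving out each array or replicate 1 of both control and ABA.

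The rule for named genes took up to 15 called genes with a symbol per direction with at least a 2-fold interaction, up to 3 called members per list, and COR15A, COR47, LTI30, LEA4-5, GH3.5 and RAB18 where named, which left out RAB18. The remaining called genes with a symbol are the 5 named after their values were seen; the 4 locus-only genes, the genes near the threshold and the uncalled list members were also chosen after their values were seen. Members and lists were chosen with earlier results of these data known, and the 25 lists were rewritten as symbol patterns after the called symbols had been seen, so their counts and medians are descriptions. Deviations from the group means correlated between control and ABA arrays of the same number (r = 0.52, 0.42 and 0.39), so the numbers pair those groups as a hint from the data. Across the 5 other pairs of groups r ran from -0.17 to 0.2, and no such pair was over 0.1 at every number. The fit without the block therefore treats the paired control and ABA arrays as independent. The block over all 4 groups is given beside the calls it ended, those of CHX20 and THE1. Promoter motifs were not analysed here.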

Additional observations from a re-analysis of the deposited data

Results flagged for a closer look

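ABA effects that differed in direction between cells without and with DMTU drew attention to 2 genes with a symbol, by the interaction test itself. SD1-29 had an interaction of 1.48, with an ABA effect of -0.69 without DMTU and 0.79 with it. COB had an interaction of 0.93, with ABA effects of -0.44 and 0.49, and its call depended on the arrays used.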

How the results depend on the processing

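The 638 calls became 3097 with array quality weights (1586 positive, 1511 negative), 1243 without both arrays numbered 1 of control and ABA (563 positive, 680 negative) and 1045 on linear signals (726 negative). Leaving out probe sets with a mean under 5 left 240 negative calls, and 1 negative call each in the late embryogenesis (from 3), histone, mitosis and recombination lists (from 2) and 1 positive call in the mitosis list (from 2); fewer probe sets are tested there by construction. Leaving out 1 array at a time gave 291 to 795 calls, 96 to 373 positive and 195 to 439 negative. With the replicate block 583 were called (234 positive, 349 negative), of which 508 were shared with the 638. The weights ran from 0.174 for control replicate 1 to 6.33 for ABA replicate 3, and the cause of the larger count was not tested. Array centring gave 615 calls and a variance trend 573. Of the 38 called genes with a symbol, all 38 kept their direction under their alternatives and 18 kept their call under every one. Centring ended the calls of UBP21 (adjusted p = 0.056) and THO7 (0.0539), and the variance trend those of UBP21 (0.0634), THO7 (0.0875), GFAT (0.0512) and OSB1 (0.0685). Precision rests on 3 arrays per group, and signals near the lower quartile limit the sizes.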
